A study of Mus musculus with 6 samples.

Results

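RIKEN clone genes are mouse genes that still carry the name of a full-length cDNA clone, an alphanumeric code ending in Rik. The genes described here were those of the liver table whose symbol ends in Rik and whose mean over 6 livers was at least 1 FPKM (fragments scaled to exon length and library total). Of 28450 genes in the table, 1680 had such a symbol. Of these, 247 (14.7%) reached the mean of 1 FPKM, 1433 stayed below it, and 209 of the latter were at 0 in every mouse. The genes were thus chosen by their mean FPKM over all mice, so their levels are a description and were not tested. The difference between knockout and control mice was not used to choose them.

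The livers were those of 12-week-old males fed a normal diet, 3 Acsm3 knockout mice and 3 wild-type control mice. Acsm3 codes for a synthetase in mitochondria that activates medium-chain fatty acids to acyl-CoA. Each animal gave its own library of poly(A)-selected RNA, 6 in all. The sources used here do not say which bases of Acsm3 were removed, in which cells, or whether controls were littermates. Acsm3 was at 33.2, 34.4 and 32.2 FPKM in controls 1 to 3 and at 0.668, 2.92 and 1.08 FPKM in knockouts 1 to 3 (log2 difference -3.84 ± 0.29 SE, adjusted p = 0.00338, limma).

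Clone names of this kind were given by the RIKEN institute in its FANTOM project, which sequenced full-length mouse cDNAs and annotated the genes they came from. A gene keeps the code until a name based on function is settled, so the codes mark genes that were less studied when the annotation was made. Some are now known proteins, and others are long noncoding RNAs, which are transcripts without a recognised open reading frame. Many such RNAs start close to a coding gene, on the other strand, and may share its promoter.

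In GENCODE M21 the 247 genes divided into 138 protein-coding genes, 98 long noncoding RNAs, 6 pseudogenes and 5 genes of another kind. Among the noncoding RNAs were 40 lincRNAs, which lie between other genes, 22 antisense RNAs and 27 processed transcripts. In RefSeq (GRCm38.p6) 193 of the 247 still carried the clone symbol, 36 had a newer name, and 18 had no matching entry. Newer names are given below in brackets.

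Promoters of 4 genes are printed. 9130409I23Rik and 2010003K11Rik rose most, A930033H14Rik fell most, and C330002G04Rik fell and kept its call without any 1 mouse. Each is the 250 bases before the RefSeq start (GRCm38.p6), 5′ to 3′ on the gene's strand, in lower case with motif matches in capitals. Motifs searched on both strands were the TATA box (TATAAA), the CCAAT box, the SP1 motif (GGGCGG), the nuclear receptor motif (AGGTCA), the E-box (CACGTG) and the forkhead motif (TGTTTAC). The regions are chr1:181050987-181051236 (+ strand) for 9130409I23Rik and chr19:4498584-4498833 (- strand) for 2010003K11Rik. Those of the genes that fell are chr10:69213099-69213348 (- strand) for A930033H14Rik and chr19:23075906-23076155 (- strand) for C330002G04Rik, the latter at the first of its listed starts.
9130409I23Rik: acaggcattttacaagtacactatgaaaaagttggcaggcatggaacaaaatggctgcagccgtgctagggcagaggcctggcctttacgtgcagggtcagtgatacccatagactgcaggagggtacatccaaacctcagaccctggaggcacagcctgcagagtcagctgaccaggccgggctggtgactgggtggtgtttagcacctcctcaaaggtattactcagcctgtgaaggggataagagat
2010003K11Rik: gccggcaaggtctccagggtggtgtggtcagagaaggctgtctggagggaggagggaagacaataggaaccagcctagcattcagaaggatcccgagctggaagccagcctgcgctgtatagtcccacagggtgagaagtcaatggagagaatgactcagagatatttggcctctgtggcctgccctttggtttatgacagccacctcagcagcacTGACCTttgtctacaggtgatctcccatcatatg
A930033H14Rik: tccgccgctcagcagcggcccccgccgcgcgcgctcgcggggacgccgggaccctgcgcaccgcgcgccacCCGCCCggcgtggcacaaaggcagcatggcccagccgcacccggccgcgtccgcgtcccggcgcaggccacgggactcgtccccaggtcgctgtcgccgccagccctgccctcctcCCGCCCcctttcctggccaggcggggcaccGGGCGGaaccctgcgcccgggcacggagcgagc
C330002G04Rik: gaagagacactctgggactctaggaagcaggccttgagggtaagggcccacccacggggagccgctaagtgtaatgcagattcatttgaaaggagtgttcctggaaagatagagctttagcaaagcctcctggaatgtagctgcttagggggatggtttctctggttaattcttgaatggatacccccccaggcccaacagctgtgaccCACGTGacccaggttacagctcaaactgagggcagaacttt

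No motif searched was found before 9130409I23Rik. The 2010003K11Rik promoter held AGGTCA on the reverse strand at bases 217 to 222, counted from 1 at the 5′ end, and 14% of 32851 RefSeq promoters hold this motif. The A930033H14Rik promoter held GGGCGG once forward, at bases 218 to 223, and on the reverse strand at bases 72 to 77 and 188 to 193. GGGCGG was in 32.7% of all promoters. The C330002G04Rik promoter held CACGTG at bases 210 to 215, a palindrome found in 6.02% of all promoters. G and C made up 53.6%, 54.4%, 81.2% and 52% of these 4 promoters in the order printed, against a median of 52.4% over all promoters. A match says only that these letters stand in the window.

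The RIKEN clone genes were expressed at lower levels than liver genes at large. Their median was 2.84 FPKM against 5.11 FPKM over the 10996 genes that passed the same minimum, and their median exon length was 2731 bp against 3934.5 bp. The coding members had a median of 4.15 FPKM, and the noncoding RNAs one of 1.79 FPKM. Of the 247 genes, 40 reached 10 FPKM and 92 lay below 2 FPKM.

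The highest level belonged to 1300017J02Rik (Inhca), a transferrin-like protein that inhibits carbonic anhydrase. It was at 126, 128 and 133 FPKM in controls 1 to 3 and at 110, 117 and 122 FPKM in knockouts 1 to 3. The knockout values all lay under the control values, and the difference did not pass the test (-0.15 ± 0.07, adjusted p = 0.194, limma). After it came C130074G19Rik, with 53.6 ± 4.59 FPKM in controls and 51.8 ± 8.37 FPKM in knockouts (SD, n = 3 each). Then followed 2410015M20Rik (Micos13) and 1600014C10Rik, the counterpart of human C19orf12, a membrane protein of mitochondria and endoplasmic reticulum. 1600014C10Rik was at 40.7 ± 4.47 FPKM in controls and 42.1 ± 3.8 FPKM in knockouts (SD, n = 3 each), and the groups overlapped. 9530068E07Rik was at 37.7 ± 3.32 and 41.9 ± 3.5 FPKM (SD, n = 3 each), again with overlap, and 2010003K11Rik, described below, was the sixth.

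At the other end, the minimum of 1 FPKM separated genes of nearly equal level. Just inside it lay 2510046G10Rik, 2610306M01Rik and 9330162012Rik, with means of 1.003, 1.01 and 1.04 FPKM. Just outside lay B430306N03Rik, 1110020A21Rik and A230083G16Rik, each with a mean of 0.99 FPKM. B430306N03Rik was at 0.394 to 0.592 FPKM in controls and at 0.793 to 1.88 FPKM in knockouts, so it was left out although its groups were apart.

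Between knockout and control livers, 25 of the 247 RIKEN clone genes passed the test (10.1%), 18 higher and 7 lower in the knockouts. A gene passed at a Benjamini-Hochberg adjusted p under 0.05 in limma, fitted on log2(FPKM + 1) over all 10996 genes. Over all tested genes 16.5% passed, 13.9% higher and 2.61% lower. The members' shares were 7.29% higher and 2.83% lower. The share of falls was near the background and that of rises below it, without a test of either. Predicted genes with a Gm symbol, which also lack a settled name, had a share of 8.47% (66 of 779). In all 25 genes the 3 knockout values lay on 1 side of the 3 control values, as they did in 64 of the 247 members (25.9%) and in 41.8% of all tested genes. Each p-value weighs a difference against the spread among the 3 animals of each group, which limma moderates over all tested genes. Log2 differences of FPKM + 1 understate the change of genes with low FPKM.

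The balance between rises and falls depended on how the libraries were scaled. With FPKM as deposited the median difference was 0.13 over all tested genes and 0.04 over the members, on the log2(FPKM + 1) scale. Median-ratio rescaling moved the median of all genes to 0.00 and that of the members to -0.06. The members' calls were then 9 higher (3.64%) and 16 lower (6.48%), and those of all genes 840 higher (7.64%) and 736 lower (6.69%). Quantile normalization gave 6 higher (2.43%) and 19 lower members (7.69%), against 6.84% and 5.48% of all genes. Removal of each library's trend on exon length gave 8 (3.24%) and 14 (5.67%), against 7.33% and 5.03% of all genes. Each of these 3 rescalings lowered the median difference of the members, to -0.06, -0.13 and -0.04, which by itself favours falls over rises. All 7 genes that fell passed under each of them, which therefore does not mark the falls as the firmer calls. Of the 18 that rose, 6 passed under all 3: 9130409I23Rik, 2010003K11Rik, 5033406O09Rik, 4930402H24Rik, E330011O21Rik and 2200002D01Rik. None of the 25 changed direction in any alternative that was run.

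**Figure D1:**
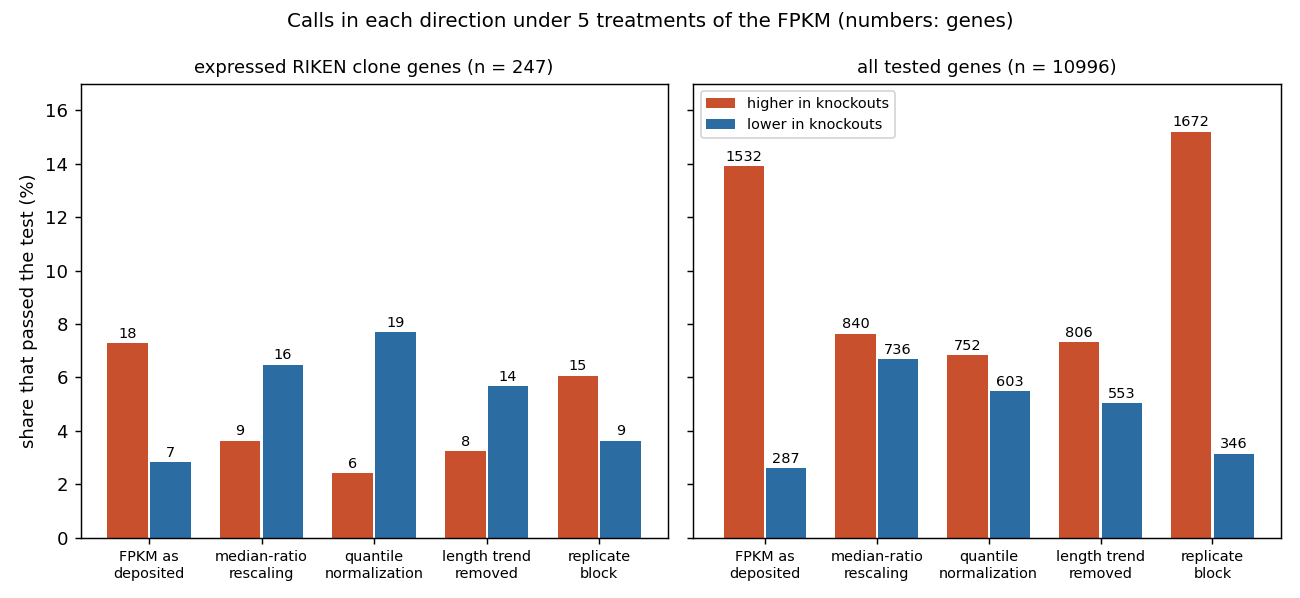
Share of genes that passed the limma test in each direction (y axis, %), for the 247 RIKEN clone genes (left) and all 10996 tested genes (right), under 5 treatments of the FPKM; numbers on the bars are genes. With FPKM as deposited 18 members rose and 7 fell, and after median-ratio rescaling 9 rose and 16 fell.

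The share that passed varied with level. Among members between 1 and 2 FPKM, 2 of 92 passed (2.17%), against 12.5% of all genes at that level. Between 2 and 5 FPKM the share was 18.7% of 75 members against 15.9% of all genes, and between 5 and 20 FPKM it was 10.6% of 66 members against 17.2%. From 20 FPKM on it was 14.3% of only 14 members against 21.2%. These shares are descriptions and were not tested against each other. Of the coding members 16 of 138 passed (11.6%), 12 higher and 4 lower, against 17.5% of all tested coding genes. Of the long noncoding members 9 of 98 passed (9.18%), 6 higher and 3 lower, against 10.7% of all tested noncoding RNAs, of which the members are a part. None of the 6 pseudogenes and 5 other genes passed in limma, and none of them had an unadjusted p under 0.05 (0 of 11, against 35.3% of all tested genes).

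**Figure D2:**
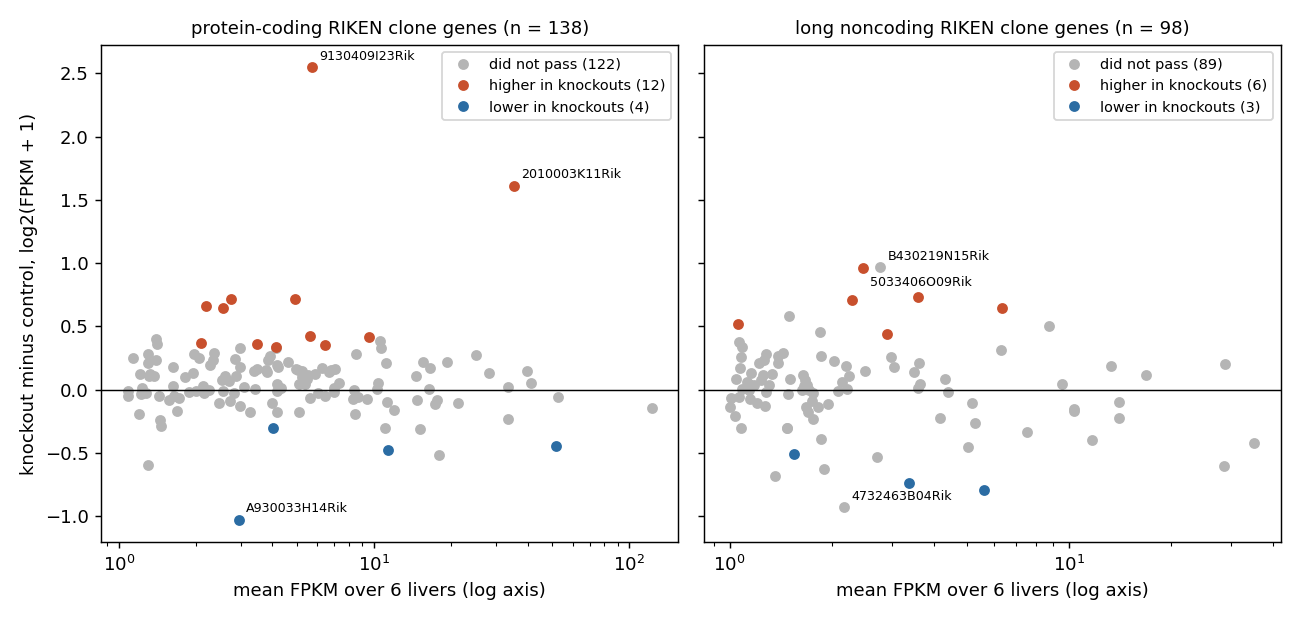
Difference between knockout and control in log2(FPKM + 1) (y axis) against mean FPKM over 6 livers (x axis, log) for the 138 coding and 98 long noncoding RIKEN clone genes, with the genes that passed in colour. 9130409I23Rik and 2010003K11Rik stand above the other coding genes, at 2.55 and 1.61.

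The largest rise was that of 9130409I23Rik, a coding gene of 3 exon blocks on chromosome 1 (181051237-181060667, + strand). It was at 1.03, 0.765 and 1.11 FPKM in controls 1 to 3 and at 10.8, 10.1 and 10.5 FPKM in knockouts 1 to 3. The transcript was thus near the minimum of 1 FPKM in every control liver and 10.8-fold higher on average in knockouts, with little spread within either group. The control mean was 0.968 FPKM, so the gene met the minimum, and was tested, only through the knockouts. The same held for 10 members in all, of which C730002L08Rik also passed, and 6 members met it only through the controls, none of which passed (limma). The log2 difference was 2.55 ± 0.09 SE (adjusted p = 0.000327, limma), and the gene passed without any 1 of the 6 mice. Its lowest value rests on an estimated 22.9 fragments and its highest on 321. The only other gene across its body is the processed pseudogene Gm17967, whose exons do not overlap its own.

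2010003K11Rik, a coding gene of 2 exon blocks on chromosome 19 (4496790-4498583, - strand), was already abundant in the control group. Controls 1 to 3 held 18.5, 16.3 and 16.1 FPKM, and knockouts 1 to 3 held 54.4, 58.9 and 48.8 FPKM. The groups were far apart, with means 3.19-fold different. The log2 difference was 1.61 ± 0.10 SE (adjusted p = 0.00161, limma), and the gene passed without any 1 mouse. With these levels it contributed the largest absolute gain in FPKM among the RIKEN clone genes, and its promoter is the second of those printed above.

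4930402H24Rik, a long coding gene with 44 exon blocks on chromosome 2 and the counterpart of human C20orf194, was at 3.40, 3.66 and 3.33 FPKM in controls. In knockouts it was at 6.67, 6.70 and 5.71 FPKM, all above the controls (0.72 ± 0.09 SE, adjusted p = 0.00807, limma). It too passed without any 1 mouse. Its start lies 89 bp from that of Atrn, on the other strand, and Atrn, which encodes attractin, was at 8.33 FPKM in controls and 8.64 FPKM in knockouts (adjusted p = 0.818, limma). The noncoding A730017L22Rik, a member on the same strand whose exons share 186 bp with it, was at 2.08 FPKM in both groups.

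5033406O09Rik was the noncoding gene with the largest rise. This lincRNA on chromosome 12 was at 1.79, 0.942 and 1.37 FPKM in controls and at 3.72, 3.68 and 3.31 FPKM in knockouts. Knockout values were close together and all above the highest control (0.96 ± 0.14 SE, adjusted p = 0.0129, limma). The call was lost without control 3 or knockout 2, where the adjusted p reached 0.0534. 4732465J04Rik, a lincRNA on chromosome 10, was at 2.98, 2.01 and 2.29 FPKM in controls and at 4.37, 6.31 and 3.61 FPKM in knockouts (0.73 ± 0.19 SE, adjusted p = 0.0436, limma). Its knockout values were spread more widely, and the call held without knockout 3 but not without any other mouse.

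E330011O21Rik, a processed transcript on chromosome 16, starts 991 bp from Cxadr, on the other strand. Cxadr encodes a cell adhesion protein of tight junctions that also serves as receptor of coxsackieviruses and adenoviruses. E330011O21Rik was at 1.80, 1.60 and 1.10 FPKM in controls and at 3.23, 3.58 and 2.44 FPKM in knockouts, with the groups apart (0.71 ± 0.15 SE, adjusted p = 0.0297, limma). Cxadr rose with it, from 13.2 to 24.4 FPKM on average (0.83, adjusted p = 0.00423, limma). The bodies of these genes overlap and their annotated exons do not. Whether fragments of 1 of these genes were counted for the other was not tested. This was the only pair of the kind in which both genes passed.

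3 further coding genes rose by similar amounts, with knockout 3 the lowest knockout in each. 2510009E07Rik (C3orf70 in human) went from 1.82 ± 0.312 to 3.69 ± 0.984 FPKM, and 1700017B05Rik (C15orf39 in human) from 1.74 ± 0.169 to 3.36 ± 0.863 FPKM (SD, n = 3 each). 2200002D01Rik, a small coding gene whose human counterpart is C19orf33, went from 1.48 ± 0.402 to 2.92 ± 0.53 FPKM (SD, n = 3 each). The adjusted p of these genes was 0.0396, 0.0384 and 0.0375 (limma). Its exons share 361 bp with Yif1b, a gene of transport between endoplasmic reticulum and Golgi on the other strand, which was at 12.9 and 15.1 FPKM (adjusted p = 0.128, limma). Without strand information, fragments in the shared stretch cannot be assigned to either gene.

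Noncoding genes with smaller rises were 4930480G23Rik, C730002L08Rik and 1300002E11Rik. Their adjusted p was 0.0449, 0.0461 and 0.0272 (limma). 4930480G23Rik and C730002L08Rik lost the call without each mouse in turn, and 1300002E11Rik kept it only without knockout 3. The antisense RNA 4930480G23Rik was at 5.44, 5.30 and 3.52 FPKM in controls and at 6.65, 8.06 and 9.09 FPKM in knockouts. C730002L08Rik was at 0.860, 0.671 and 0.545 FPKM in controls and at 1.12, 1.41 and 1.74 FPKM in knockouts. It lies within the body of Aldh1a1, a retinaldehyde dehydrogenase gene, on the other strand without shared exons, and Aldh1a1 was at 299 FPKM in controls and 388 FPKM in knockouts (adjusted p = 0.0697, limma). 1300002E11Rik, a lincRNA, went from 2.33 ± 0.261 to 3.51 ± 0.207 FPKM (SD, n = 3 each).

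The remaining 6 genes that rose were coding and rose by 0.34 to 0.42 on the log2 scale. 4931406P16Rik (Garre1), an effector of the small GTPase RAC, went from 1.71 to 2.5 FPKM on average. 2810403A07Rik (Khdc4), an RNA-binding protein linked to splicing, was at 6.14, 5.44 and 5.01 FPKM in controls and at 7.22, 7.06 and 7.63 FPKM in knockouts. 9130011E15Rik (Armh3), a protein of the Golgi, went from 3.55 to 4.75 FPKM. The others were 0610030E20Rik, 1810013L24Rik and 8030462N17Rik, at 4.65, 8.02 and 2.93 FPKM in controls and 6.57, 11 and 4.05 FPKM in knockouts. Of these 6, only 0610030E20Rik also passed after median-ratio rescaling.

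Among the genes that fell, A930033H14Rik changed most. This gene of 2 exon blocks on chromosome 10 (69209762-69213098, - strand), annotated as coding, was at 3.54, 4.17 and 5.23 FPKM in controls and at 1.17, 1.87 and 1.77 FPKM in knockouts. Controls were 2.69-fold above knockouts on average, and the lowest control was above the highest knockout (-1.03 ± 0.16 SE, adjusted p = 0.0138, limma). Without control 2 or control 3 the call was lost, with an adjusted p of up to 0.055 (limma). Exons of A930033H14Rik share 15 bp with Rhobtb1, on the other strand, which was at 17.4 FPKM in controls and 16.2 FPKM in knockouts.

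4833411C07Rik, a processed transcript on chromosome 8, was at 6.48, 7.36 and 8.26 FPKM in controls and at 4.58, 3.68 and 3.26 FPKM in knockouts (-0.79 ± 0.13 SE, adjusted p = 0.0154, limma). The lincRNA Gm2814 starts 636 bp away on the other strand and shares 164 bp of exon with it. Gm2814 was at 3.18 FPKM in controls and 1.60 FPKM in knockouts (-0.71, adjusted p = 0.0539, limma), so it did not pass. C330002G04Rik, a lincRNA on chromosome 19, was at 4.17, 4.40 and 4.90 FPKM in controls and at 2, 2.61 and 2.26 FPKM in knockouts. Its groups were well apart (-0.74 ± 0.10 SE, adjusted p = 0.0114, limma), and it was the only gene that fell and passed without any 1 mouse.

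2410015M20Rik (Micos13), a subunit of the MICOS complex that holds the cristae junctions of the inner mitochondrial membrane, was the most abundant gene that fell. It had 64.1, 57.8 and 58 FPKM in controls and 46.4, 40.1 and 45 FPKM in knockouts. Every knockout was below every control (-0.45 ± 0.09 SE, adjusted p = 0.0227, limma). 5830473C10Rik (Albfm1), a member of the albumin superfamily on chromosome 5, was at 12.7, 14 and 13.4 FPKM in controls and at 10.5, 7.79 and 9.70 FPKM in knockouts (-0.48 ± 0.11 SE, adjusted p = 0.0353, limma). Knockout 2 was lowest in both genes. Of the 6 fits without 1 mouse, only the one without knockout 3 kept the call of either gene. Exons of 5830473C10Rik share 207 bp with Gm42109, on the other strand, which was at 0.44 FPKM in controls and 0.56 FPKM in knockouts.

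1810021B22Rik and 1110032A03Rik also fell, by 0.51 and 0.30 on the log2 scale, and share exon sequence with genes on the other strand. The antisense RNA 1810021B22Rik went from 2 ± 0.455 to 1.09 ± 0.077 FPKM (SD, n = 3 each), on only 14 to 33.8 estimated fragments, and its exons share 88 bp with Trabd (13.5 and 13.1 FPKM). 1110032A03Rik was at 4.74, 4.30 and 4.63 FPKM in controls and at 3.80, 3.37 and 3.35 FPKM in knockouts. It starts 501 bp from Alg9, a mannosyltransferase gene of protein glycosylation, with 500 bp of shared exon, and Alg9 was at 4.25 and 4.59 FPKM (adjusted p = 0.525, limma). It lost its call without each mouse in turn.

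**Figure D3:**
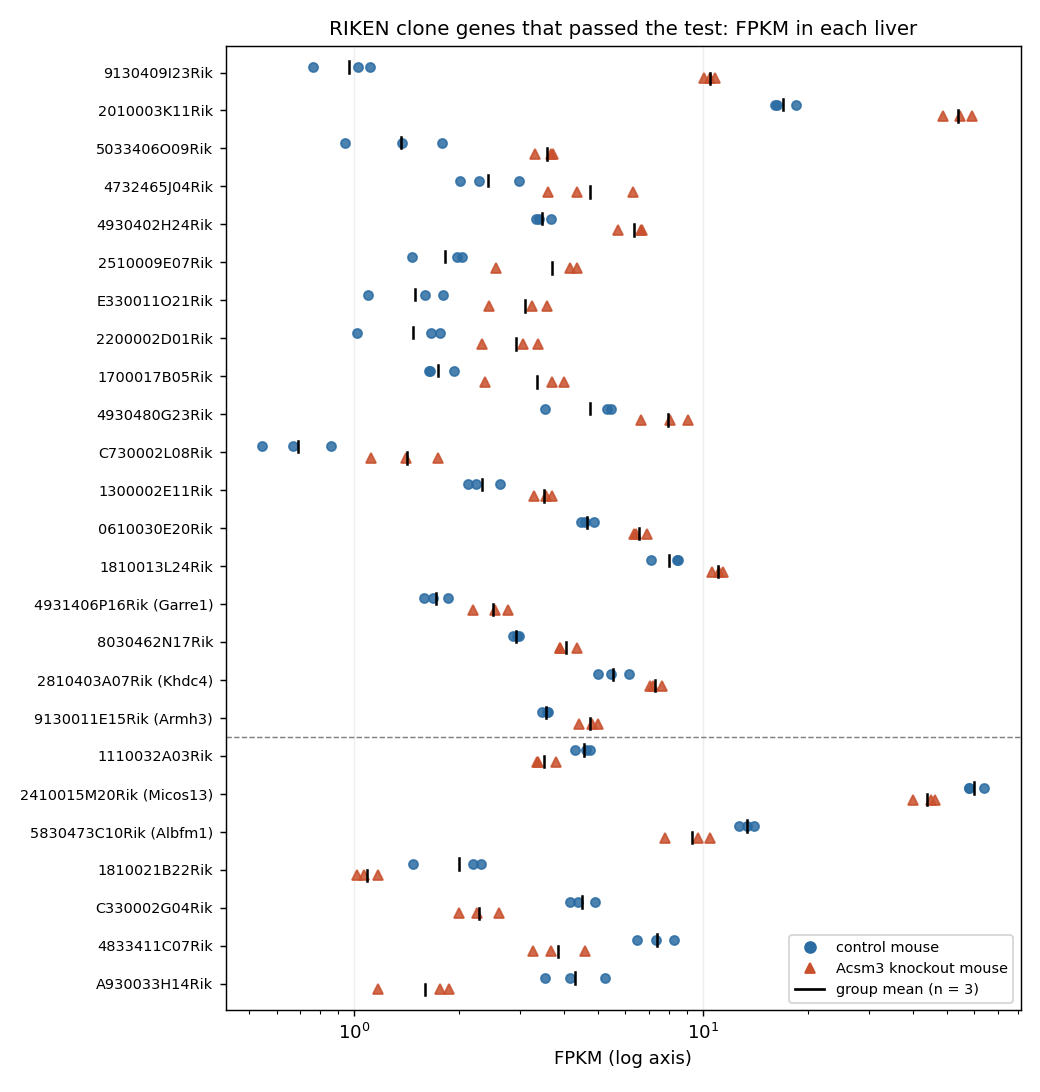
FPKM (x axis, log) of the 25 RIKEN clone genes that passed, in each of 3 control (circles) and 3 Acsm3 knockout livers (triangles), with group means as black bars; genes above the dashed line rose and those below it fell. In every row the circles and triangles do not overlap, from 9130409I23Rik at the top to A930033H14Rik at the bottom.

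The 3 knockouts did not contribute alike. In 11 of the 18 genes that rose, knockout 3 was the knockout nearest to the controls, against 2 for knockout 1 and 5 for knockout 2. In the 7 that fell, knockout 1 was nearest in 4, knockout 2 in 2 and knockout 3 in 1. Fits without 1 mouse called 3 to 22 members higher and 1 to 6 lower, and 22 higher was reached without knockout 3. Without control 1, control 2 or control 3 the higher calls were 5, 4 and 3, and without knockout 1 or knockout 2 they were 4 and 3. The lower calls were 4, 2 and 1 without control 1, 2 and 3, and 2 without knockout 2. Of the 18 genes that rose, 11 kept their call only without knockout 3, 3 kept it without every mouse in turn, and 3 kept it in none of the 6 fits. Of the 7 that fell, 1 kept its call in all 6 fits and 1 in none.

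Of 10 listed RIKEN symbols for trafficking and lysosomal proteins, 8 were among the members and none passed in limma, against 16.5% of all tested genes. An unadjusted p under 0.05 was found for 4 of the 8, against 35.3% of all tested genes and 19.8% of the members. 3110043O21Rik (C9orf72), a regulator of endosomal trafficking and autophagy, was at 3.19, 3.54 and 3.91 FPKM in controls and at 4.82, 5.32 and 4.03 FPKM in knockouts. Its groups did not overlap by a narrow margin (0.33 ± 0.11 SE, adjusted p = 0.0859, limma). 4932438A13Rik, a very long bridge-like lipid transfer protein, was at 2.02, 2.65 and 3 FPKM in controls and at 3.69, 3.38 and 3.23 FPKM in knockouts (0.32 ± 0.12 SE, adjusted p = 0.106, limma). The median difference of these 8 genes was 0.17, close to the 0.13 of all tested genes.

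Of 7 listed symbols for mitochondrial proteins 5 were members, and 1, Micos13, passed, lower in knockouts, against 16.5% of all tested genes in either direction. 2010107E04Rik (Atp5mpl), a small membrane subunit of the ATP synthase, was at 25.9, 19.8 and 18.3 FPKM in controls and at 15.8, 12.6 and 15.2 FPKM in knockouts. Every knockout lay below every control, yet the gene did not pass (-0.51 ± 0.15 SE, adjusted p = 0.0548, limma), while it passed after median-ratio rescaling (adjusted p = 0.024, limma). 1700021F05Rik (Mtres1), a factor of mitochondrial transcription, and 1190007I07Rik, an assembly factor of respiratory complex III, had overlapping groups. The median difference of the 5 genes was -0.11.

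Of 6 members listed as hepatic metabolic or secreted 1 passed, 2200002D01Rik, against 16.5% of all tested genes, and the median difference was -0.01. Whether the listed symbols belong to this role was not tested. 8430408G22Rik (Depp1), a FOXO-responsive regulator of autophagy, was at 32.3, 32.8 and 30.4 FPKM in controls and at 44.6, 42.3 and 17.8 FPKM in knockouts. Knockouts 1 and 2 were above and knockout 3 below all controls, and the difference did not pass (adjusted p = 0.968, limma). C330007P06Rik was the only member among the symbols listed as nuclear or RNA-related. It is described as a factor in the exit of STING from the endoplasmic reticulum, and whether it belongs to that list was not tested. Its level was 6.38 ± 0.349 FPKM in controls and 7.20 ± 0.292 FPKM in knockouts (SD, n = 3 each, adjusted p = 0.186, limma). The snoRNA host transcripts 1110038B12Rik and 2410006H16Rik were at 2.65 and 14.6 FPKM in controls and at 3.31 and 13.5 FPKM in knockouts, with overlapping groups.

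Long noncoding RNAs of known function were among the members and did not pass, and they are named here after their values were seen. 2900097C17Rik (Norad), an RNA that binds Pumilio proteins, was at 27.8, 25.7 and 27.0 FPKM in controls and at 31.4, 30.6 and 31.0 FPKM in knockouts. Its groups were apart, but the small difference did not pass (0.20 ± 0.06 SE, adjusted p = 0.0749, limma). 1700020I14Rik (Oip5os1), an RNA also called Cyrano that pairs with a microRNA, was at 12.4 ± 1.11 and 14.2 ± 1.67 FPKM (SD, n = 3 each). 1810026B05Rik (Chaserr), which starts upstream of Chd2 and restrains its expression, was at 1.14 ± 0.112 and 1.22 ± 0.374 FPKM (SD, n = 3 each). The groups of 1700020I14Rik and of 1810026B05Rik overlapped. Exons of 1810026B05Rik share 2628 bp with those of Chd2 on the same strand, so fragments there may belong to either gene. Chd2 was at 3.23 FPKM in controls and 3.18 FPKM in knockouts (adjusted p = 0.904, limma).

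Many RIKEN clone genes lie against another gene. Exons of 97 of the 247 shared bases with another gene, and for 86 of them that gene was on the other strand. The sources used here do not say if strand was kept, so fragments of such stretches may belong to either gene. Starts within 1 kb of a tested gene on the other strand were found for 49 members, which made 48 pairs because 1110019D14Rik and 2610001J05Rik form a pair with each other. In 29 of the 48 pairs both differences had the same sign, with Pearson's r of 0.41 and a Spearman coefficient of 0.21 over pairs that share libraries. Without the 2 pairs farthest from the median of the RIKEN clone genes' difference, 4833411C07Rik with Gm2814 and 4930402H24Rik with Atrn, r was 0.31. For the 27 pairs of noncoding members r was 0.54, and for the 20 other pairs of coding members it was -0.048. Among the noncoding pairs the farthest were 4833411C07Rik with Gm2814 and E330011O21Rik with Cxadr, and without them r was 0.11.

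In 6 of the 48 pairs the neighbour passed, each time higher in knockouts, and in 5 of these the RIKEN clone gene did not pass. Over all tested genes 13.9% passed higher and 2.61% lower, and the neighbours were not tested against these shares. Picalm, a clathrin assembly gene, rose from 12.1 to 17.6 FPKM (0.50, adjusted p = 0.0367, limma), while 2310010J17Rik, which starts 229 bp away, differed by -0.27. Ncbp2, a subunit of the nuclear cap-binding complex, rose from 8.15 to 11.5 FPKM (0.45, adjusted p = 0.0213, limma), while 0610012G03Rik, 19 bp away, differed by -0.17. Pld3, a lysosomal nuclease, rose from 8.49 to 14.1 FPKM (0.66, adjusted p = 0.0449, limma), and 2310022A10Rik, 15 bp away, differed by 0.11. The remaining neighbours were Edem3 beside 2810414N06Rik and Ankrd11 beside 2810013P06Rik. Whether the differences within a pair were unequal was not tested.

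**Figure D4:**
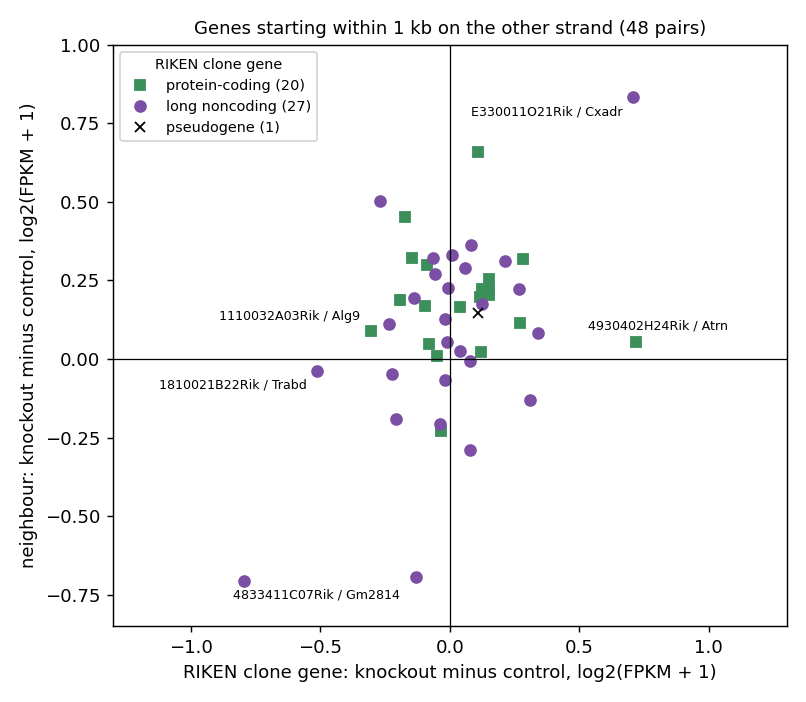
Difference between knockout and control in log2(FPKM + 1) of the RIKEN clone gene (x axis) in 48 pairs and of the gene that starts within 1 kb on the other strand (y axis), with the 5 pairs named whose RIKEN clone gene passed. E330011O21Rik and Cxadr lie at 0.71 and 0.83, and 4833411C07Rik and Gm2814 at -0.79 and -0.71.

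The difference also moved with exon length. Among members of under 1 kb of exon the median was -0.10 (n = 28), from 1 to 2 kb it was 0.01 (n = 66), from 2 to 4 kb 0.03 (n = 72) and from 4 kb on 0.13 (n = 81). Over all tested genes the same bands had medians of 0.00, 0.04, 0.11 and 0.16. Of the 18 members that rose, 11 had at least 4 kb of exon, against 81 of all 247 members. The same held for 874 of the 1532 tested genes that rose, against 5422 of all 10996 tested genes. The median length was 4672.5 bp for the 18 members and 2776 bp for the 7 that fell. Over all tested genes that passed, it was 4518 bp for rises and 2545 bp for falls. The part of exon length in these differences was not tested beyond the fit with the length trend removed, given above.

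**Figure D5:**
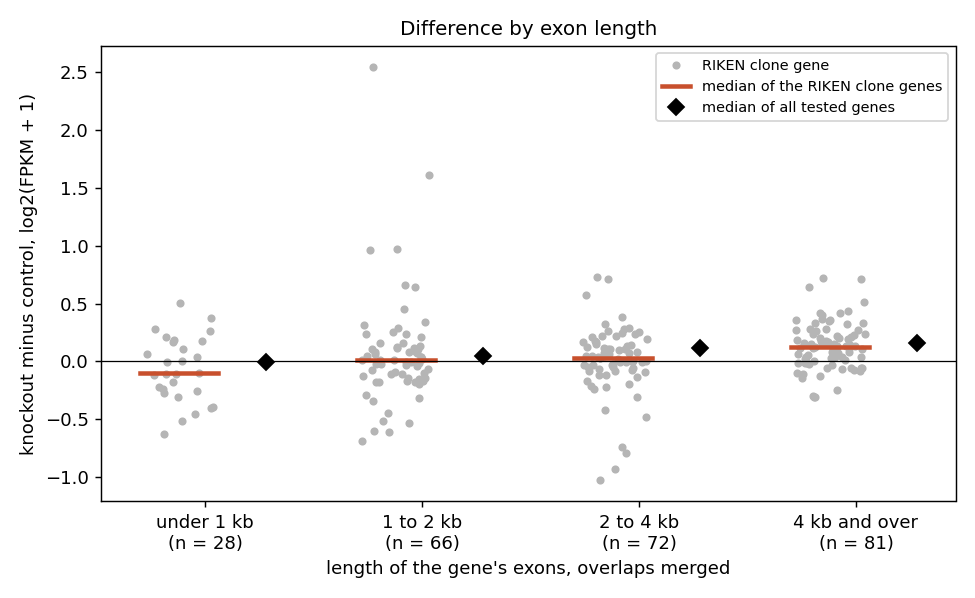
Difference between knockout and control in log2(FPKM + 1) (y axis) of each RIKEN clone gene (grey points) by exon length (x axis), with the members' median (bar) and that of all tested genes (diamond) in each band. The members' median goes from -0.10 under 1 kb to 0.13 at 4 kb and over.

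Some members varied more between mice of 1 group than between groups, and they were picked for this spread. The highest and lowest knockout differed at least 2-fold in 28 of 247 members, and the highest and lowest control in 18. Over all 10996 tested genes these counts were 842 and 665. The median ratio of highest to lowest knockout was 1.33 in members and 1.24 in all tested genes. B430219N15Rik was at 1.36, 0.269 and 0.109 FPKM in controls, at 0.328 and 0.223 FPKM in knockouts 1 and 2, and at 14.4 FPKM in knockout 3. Its mean met the minimum only through that mouse. In controls, 9030619P08Rik was at 13.6, 4.26 and 2.04 FPKM and 2310039H08Rik at 30.9, 28.7 and 9.63 FPKM. 4931406C07Rik, the counterpart of C11orf54, was at 21.7 and 24.2 FPKM in knockouts 1 and 2 and at 38.0 FPKM in knockout 3, while controls lay between 20.5 and 24.1 FPKM. 4732463B04Rik, an antisense RNA, was at 3, 3.49 and 2.82 FPKM in controls and at 0.941, 0.580 and 2.24 FPKM in knockouts, and missed the threshold (-0.93 ± 0.25 SE, adjusted p = 0.0503, limma). Its exons share 312 bp with Acot3 and 615 bp with Acot4, acyl-CoA thioesterase genes on the other strand. Acot3 went from 44.1 to 7.39 FPKM (adjusted p = 0.00451) and Acot4 from 41.4 to 20.9 FPKM (adjusted p = 0.0128, limma). The part of fragments from these genes in the values of 4732463B04Rik was not tested.

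Depth was alike in all libraries, with totals estimated from the steps between low FPKM values at 15400000 to 16300000 fragments. A transcript of 2 kb at 1 FPKM then corresponds to 30.7 to 32.5 fragments. Markers of several cell types differed between the groups. The summed level of 8 hepatocyte markers was 46538 to 55200 FPKM in controls and 34718 to 38656 FPKM in knockouts, with 2 of 8 lower. For 6 macrophage markers it was 133 to 208 and 224 to 420 FPKM (3 of 6 higher), for 6 stellate cell and fibroblast markers 35.0 to 41.4 and 73.3 to 98.8 FPKM (4 of 6 higher), and for 5 sinusoidal endothelial markers 40.9 to 45.7 and 52.7 to 65.4 FPKM (2 of 5 higher). For 5 cholangiocyte markers it was 13.4 to 16.1 and 34.1 to 66.6 FPKM, with Krt7 under 0.1 FPKM on average. Only 1 of these 5 reached a mean of 1 FPKM and was tested, and it was higher. Lymphocyte markers summed to 1.49 to 2.04 and 2.10 to 4.93 FPKM, adipocyte markers to 1.52 to 1.69 and 3.71 to 5.97 FPKM, and neutrophil markers to 1.23 to 2.39 and 3.05 to 9.09 FPKM. Of these, 1 of 5 lymphocyte, 1 of 4 adipocyte and 3 of 4 neutrophil markers were tested, with 1, 1 and 2 higher. Ly6g was at 0 in all mice, and Adipoq, Lep and Plin1 were under 0.1 FPKM. The part of cell composition in the differences of the RIKEN clone genes was not tested, and in whole liver fewer cells of a type and less RNA per cell cannot be told apart.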

How the data were processed

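The values are FPKM, deposited by the authors in 1 table of 28450 genes and 6 livers. The submitters' processing notes name HISAT2 2.0.4, Bowtie2 2.2.6, StringTie 1.3.0 and GRCm38, without their roles. The sources used here do not say how fragments of overlapping or duplicated genes were counted. Columns were matched to samples by title, and 0 columns of per-sample values were left out. Genes whose mean reached 1 FPKM (10996) were tested on log2(FPKM + 1) with limma 3.58.1 (R 4.3.3; lmFit, eBayes with trend), knockout minus control, at a Benjamini-Hochberg adjusted p of 0.05. The procedure was tested on simulated data. With 3 mice in each group, the smallest p an exact two-sided permutation test allows is 0.1.

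Positions and exon lengths are from GENCODE M21 (GRCm38), which held all 247 genes, 232 at the same position; promoters and newer names are from RefSeq (GRCm38.p6). Estimated totals put 99.6% to 99.7% of values under 20 fragments within 0.1 of a whole number, and recovered fragments summed to 102.9% to 103.4% of them; they served for depth only. Named genes were the 12 largest changes in each direction among those that passed with groups apart, the 6 highest levels, the genes around the minimum, role list members and neighbours. The 6 smaller rises, the genes with wide spread and the noncoding RNAs of known function were added after their values were seen. The members and lists were chosen with earlier results of these data known. Alternatives were 2 pseudocounts, 2 filters, 2 scalings, other limma settings, a replicate block and each mouse left out. Removal of the length trend was added after seeing the data.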

Additional observations from a re-analysis of the deposited data

How the results depend on the processing

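No filter on low values left 5 members called higher and 4 lower (544 and 106 of all genes), and a minimum of 5 FPKM 6 and 3 (848 higher of all genes), where only 80 members were tested. Median-ratio rescaling gave 9 and 16 (840 and 736), quantile normalization 6 and 19 (752 and 603), and removal of the length trend, added after seeing the data, 8 and 14 (806 and 553). The median member difference under these 3 was -0.059, -0.13 and -0.042. Fits without 1 mouse, which have fewer samples, gave 3 to 22 members higher and 1 to 6 lower, 223 to 1987 and 55 to 284 of all genes, and a median member difference of -0.00 to 0.09. Other causes were not tested.

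Genes that had not passed changed sign: 1600014C10Rik (-0.11 median-ratio, -0.0059 quantile, -0.091 length trend, and -0.041 to 0.12 without 1 mouse), 9530068E07Rik (-0.011 median-ratio), C330007P06Rik (-0.0085 quantile, -0.020 length trend), C130074G19Rik (-0.18 to 0.021 without 1 mouse) and 2610306M01Rik (-0.15 to 0.068 without 1 mouse). Pseudocounts of 0.1 and 5, limma without trend and robust empirical Bayes kept all counts within 1.5 times.

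Mice share only replicate numbers across groups. Same-numbered mice correlated at 0.11, 0.09 and 0.19, so pairing was not assumed, although each mouse correlated best with its own number. With a replicate block 15 members were higher and 9 lower (1672 and 346 of all genes), 21 of them shared with the unblocked calls.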
